A study of Mus musculus with 23 samples.

Results

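Chemokines and their receptors were followed in PyMT mammary tumors in which IL-38 was neutralized by an antibody, absent by knockout, or absent while the γδ T cell receptor was blocked. The genes were chosen by name: every protein-coding gene whose mouse symbol begins with Ccl, Cxcl, Xcl, Cx3cl, Ccr, Cxcr, Cx3cr, Xcr or Ackr and a digit, with 2 receptors left out of the selection, and with at least 1 read in any library. This gave 53 members, 33 ligands and 20 receptors, of 27483 genes with any read and 47643 listed. Another 5 genes with such names (Ccl21a, Ccl21b, Ccl26, Ccl27b and Ccr8) were listed at 0 reads in all 23 libraries.

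PyMT mice carry the polyoma middle T oncogene, which drives mammary carcinoma; all mice of the study carried it, on a C57BL/6 background, and all were female. In the neutralization experiment, PyMT WT mice received a human IgG1 isotype control (5 tumors) or the anti-IL-38 antibody e04 (6 tumors) beginning at a first tumor of 0.6 cm. In the genotype and blockade experiment, PyMT WT mice with Armenian hamster IgG (4 tumors), PyMT IL-38 KO mice with the same IgG (4 tumors) and PyMT IL-38 KO mice with the anti-γδ TCR antibody UC7-13D5 (4 tumors) were treated from 13 weeks of age. All antibodies were given once a week for 5 weeks. A WT group with anti-γδ TCR was not analysed here, so blockade was compared only within IL-38 KO tumors. The study describes UC7-13D5 as blocking the receptor and not as depleting the cells. By flow cytometry it still counted fewer γδ T cells in tumors given this antibody, presumably through less proliferation. RNA came from whole dissociated tumors, so that fewer cells of a type and less RNA per cell cannot be told apart.

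Chemokines are small secreted proteins that steer leukocytes along gradients toward cells bearing the matching receptor, a G protein-coupled receptor. Ligands are grouped by the spacing of their first cysteines (CC, CXC, CX3C and XC), and the atypical receptors (Ackr) bind ligands and clear or present them without the usual G protein signal. In tumors, CC ligands are known for drawing monocytes and macrophages, Cxcr2 ligands for neutrophils, Cxcr3 ligands for activated T and NK cells, and Xcl1, made by activated CD8+ T cells and NK cells, for the cross-presenting type 1 dendritic cells (cDC1) that carry Xcr1.

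The total of reads counted on genes was 6273049 to 15879164 per library, and levels are given as CPM, the reads of a gene relative to the total of its library. Where a gene had 0 reads, as much as 0.189 to 0.478 CPM remained possible from counting error alone. Of the 23 libraries, 5 stood apart: all 4 of the γδ TCR blockade and replicate 4 of the IL-38 KO tumors with IgG. They held the fewest reads (6273049 to 8794202, against 10138353 to 15879164), 1.31% to 1.98% of reads on processed pseudogenes against 0.0943% to 0.191%, and 11.3% to 20.1% on the transcript Gm42418 against 2.62% to 5.70%. These measures therefore moved with the blockade except in that IL-38 KO library with IgG, and their part in the blockade results was not tested. In the deposited column names these 5 libraries carry the last sample numbers, in an unbroken run. The name of blockade replicate 3 also holds the mark rep, whose meaning is not stated. The markers of the dissociated tumor were present in every group: the summed list of 5 luminal epithelial genes was at 579 to 2568 CPM and that of 8 macrophage genes at 678 to 3178 CPM. Isotype replicate 5 was lowest of all libraries in the luminal (579 CPM), fibroblast (952 CPM) and endothelial (51.7 CPM) lists. It was also lowest for several members, among them Xcl1, Cxcl9, Cxcl12, Cxcl14 and Ackr3. Without it the log2 difference of Xcl1 on anti-IL-38 was 1.56. Il1f10, the gene of IL-38, had 0 reads throughout, so the genotype labels could not be checked from it.

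The members took 0.0588% to 0.5504% of a library's reads. The ligand Ccl6 held 55.8% to 72.8% of the reads on members in the 18 other libraries and 1.53% to 12.6% in the 5 that stood apart. By position, 12 of the 33 ligands lie on chromosome 11, including 11 of the 12 inflammatory CC ligands, 9 lie on chromosome 5, including the Cxcr2 and Cxcr3 ligands, and 11 of the 20 receptors lie on chromosome 9. A comparison tested 41 or 42 members, those whose normalized counts averaged 5 or more over its libraries. Of the 53, 45 were tested in at least 1 comparison and 39 in all 4; Ccl1, Ccl19, Ccr10, Ccr1l1, Ccr3, Cxcl3, Cxcr1 and Cxcr2 were too low in all of them, with at most 0.945 CPM in any library. Values between tumors of 1 group spread more for members than for genes at large. In the antibody, knockout and blockade comparisons the median within-group SD on the log2 scale was 0.6101 to 0.751 for tested members. For all genes tested it was 0.347 to 0.381. With inhibited and control tumors pooled, where each side joins groups of both experiments, it was 0.805 against 0.426.

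**Figure D1:**
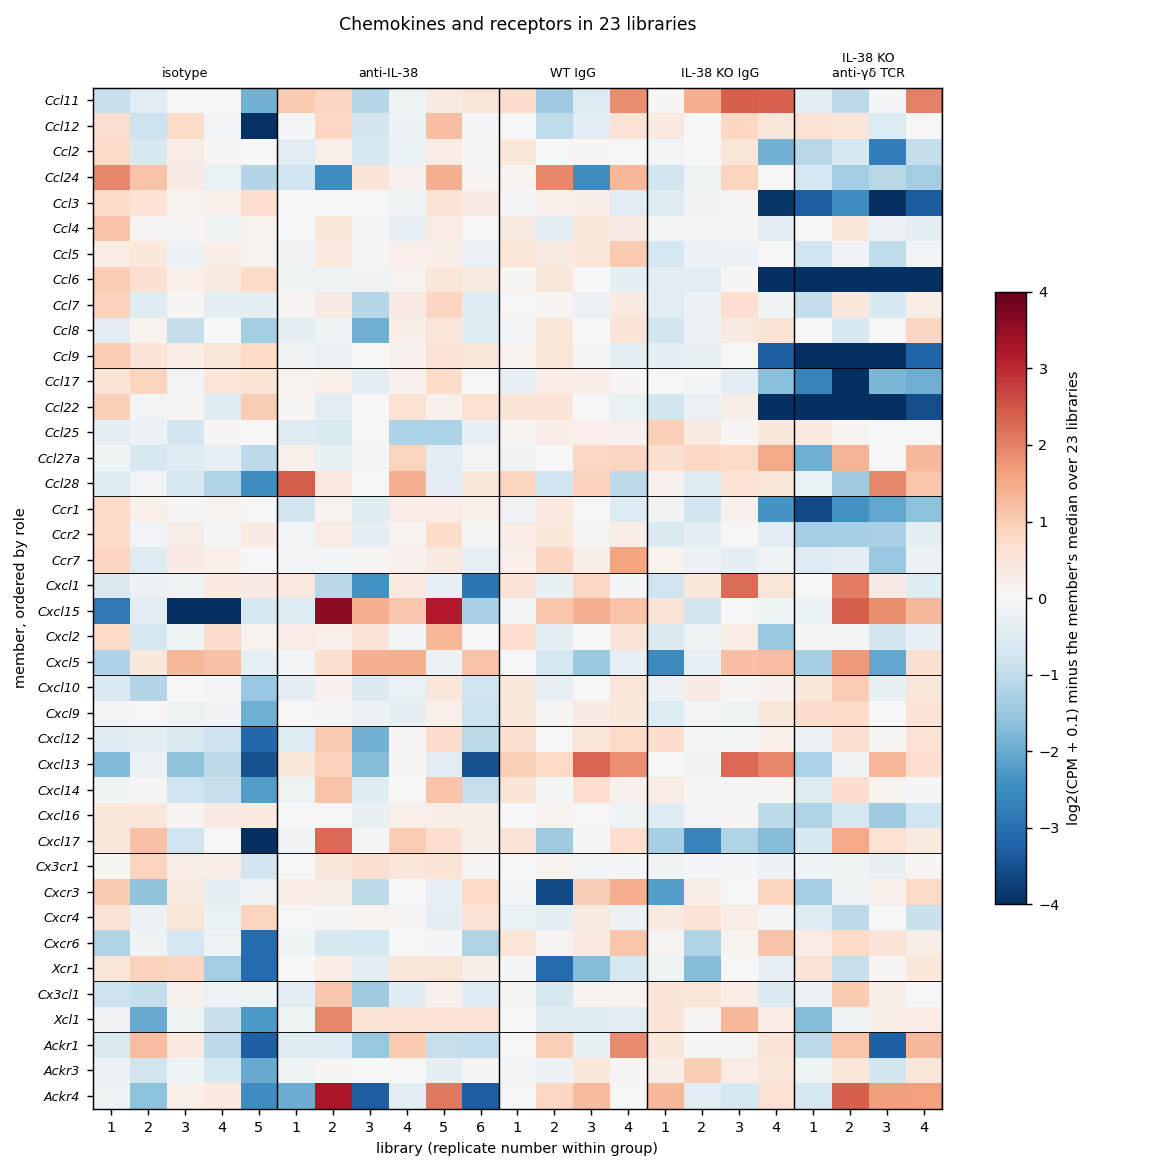
Level of the 40 members with a mean of at least 0.5 CPM in each of 23 libraries, as log2(CPM + 0.1) minus the median of that member, with libraries in columns by group and members in rows by role; colors end at 4 on either side. The dark block on the right is Ccl3, Ccl6, Ccl9 and Ccl22 in IL-38 KO replicate 4 and the 4 libraries with anti-γδ TCR, where Ccl6 was at 12.8 to 103 CPM against 1423 to 3979 CPM elsewhere.

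In all 4 comparisons, and in the test of the antibody effect against the knockout effect, 0 members passed an adjusted p of 0.05 in limma, on log2(normalized count + 1) with adjustment over all genes tested. Among all genes, limma called 0%, 0%, 0.00604% and 0% in inhibited versus control tumors, antibody, knockout and blockade, and 0.00612% for the antibody against the knockout effect, so few genes of any kind were called. At an unadjusted p under 0.05, the antibody comparison had 7 of 41 members (17.1%), 5 higher and 2 lower, against 10.5% of all genes, 5.61% higher and 4.91% lower. The knockout comparison had 8 of 42 (19%), 3 higher and 5 lower, against 12.1% (6.73% and 5.4%). With IL-38 inhibited by either means, 7 of 42 (16.7%) had such a p, 6 higher and 1 lower, against 10.5% (6.42% and 4.13%). Blockade had 13 of 42 (31.0%), 5 higher and 8 lower, against 21.7% (12.7% and 9.0%). The antibody and knockout effects differed at such a p for 5 of 42 members (11.9%), all 5 more positive with the antibody, against 7.67% of genes, 4.24% more positive and 3.43% less. The median log2 fold change over the tested members was 0.19 in the antibody comparison, −0.27 in the knockout comparison and −0.01 in the blockade, where the medians over all genes were 0.00, 0.01 and 0.02.

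Other tests called some members. DESeq2 on the same reads called 1 member, Xcl1, with IL-38 inhibited (0.428% of all genes), 0 with the antibody (0.469%), 2 with the knockout (1.84%) and 8 with the blockade (6.29%; Ccl3, Ccl6, Ccl9, Ccl17, Ccl22 and Ccr1 lower, Cxcl15 and Cxcl17 higher). For the antibody against the knockout effect DESeq2 called 0 members (0.135%). edgeR called 0 members in each comparison, beside 0.00612% of all genes with IL-38 inhibited and 0% in the others, although the same 42 members had 12 at an unadjusted p under 0.05 in the blockade. The calls of limma in the blockade depended on IL-38 KO replicate 4: without that library 11 members were called, 4 higher (Ccl20, Cxcl9, Cxcl17 and Cxcr5) and 7 lower, beside 14.3% of all genes (9.45% and 4.85%). It was the only IgG library among those that stood apart in depth and composition. In every blockade fit without that library, these library measures coincided fully with the blockade, and their effects cannot be told apart. In the knockout comparison limma called 0 members also without that library, beside 0.0431% of genes.

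**Figure D2:**
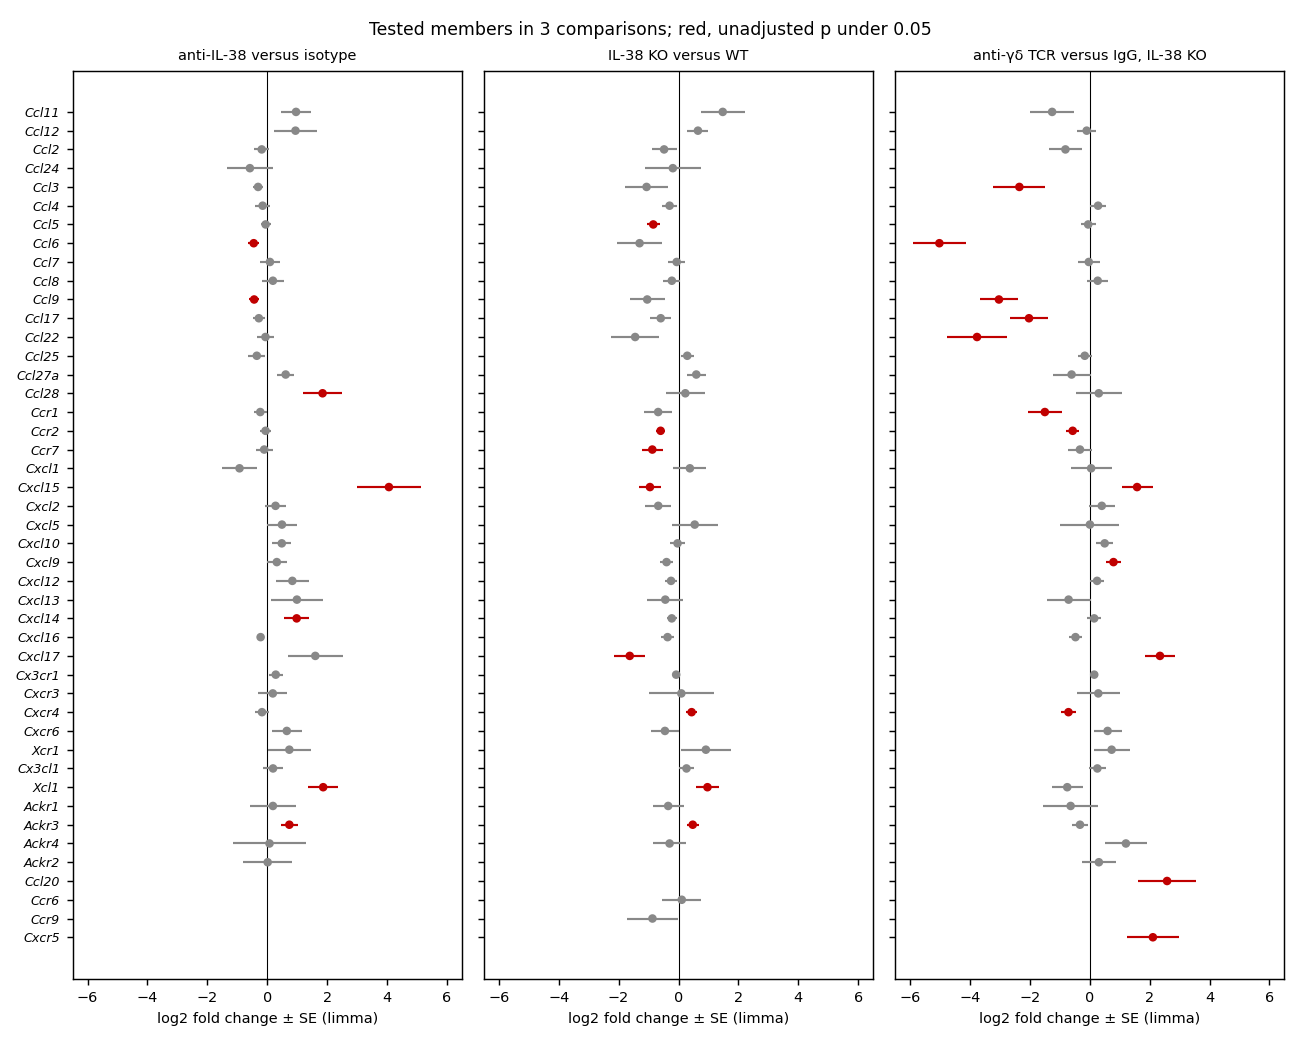
log2 fold change of the tested members with its standard error (limma) on anti-IL-38, in IL-38 KO and on γδ TCR blockade; members are rows, and red marks an unadjusted p under 0.05. Ccl6 at −5.02 and Cxcl15 at 4.06 lie farthest from 0, and no member passed an adjusted p of 0.05.

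Xcl1 was higher in tumors with IL-38 inhibited by an exact permutation test of the gene alone, though not in limma over all genes. In the isotype group it was at 1.32, 0.289, 1.298, 0.747 and 0.223 CPM, and with anti-IL-38 at 1.27 at the lowest, 2.25 at the median and 5.99 at the highest CPM. All but 1 of the anti-IL-38 tumors lay above all isotype tumors. WT tumors held 1.48, 1.01, 0.998 and 1.05 CPM, and IL-38 KO tumors held 2.14, 1.62, 3.84 and 1.86 CPM. The 2 genotypes did not overlap. On the scale of log2(normalized count + 1), Xcl1 differed by 1.48 between the 10 inhibited and 9 control tumors (two-sided exact permutation test over 92378 groupings, p = 7.58e-05, adjusted over 8 tests 0.000606). That test took the tumors of both experiments as exchangeable. The main limma and DESeq2 fits of inhibited versus control tumors likewise had no term for the experiment. On anti-IL-38 alone the difference was 1.87 (exact permutation p = 0.00866, adjusted 0.0346). In IL-38 KO against WT the difference was 0.97, with an exact permutation p of 0.0286, the smallest that 4 against 4 tumors allow, and 0.0762 after adjustment. Xcl1 was chosen for testing with these results in view, and over all genes limma gave it adjusted p-values of 0.185, 0.376 and 0.351; DESeq2 gave 1.53 (adjusted p = 0.0145) with IL-38 inhibited. The adjusted permutation p on anti-IL-38 rose to between 0.0571 and 0.0762 without any 1 of anti-IL-38 replicates 2 to 6 or isotype replicates 2, 4 or 5. The highest library, anti-IL-38 replicate 2 at 5.99 CPM, was also highest of its group in the basal epithelial list (245 CPM), whose part was not tested, and the difference was 1.61 without it. The knockout difference in limma was 1.04 (adjusted p = 0.297) without IL-38 KO replicate 4.

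With γδ TCR blockade, Xcl1 in IL-38 KO tumors was at 0.375, 1.28, 1.75 and 1.82 CPM, overlapping the IgG group (log2 difference −0.75, exact permutation p = 0.229). Its receptor Xcr1 was low in every group: 1.09, 1.52, 1.43, 0.224 and 0 CPM in isotype, 0.554 at the lowest, 0.913 at the median and 1.08 at the highest CPM with anti-IL-38, 0.696, 0, 0.154 and 0.439 CPM in WT, 0.634, 0.154, 0.756 and 0.58 CPM in IL-38 KO and 1.12, 0.3504, 0.797 and 1.02 CPM with blockade. These groups overlapped, and none of the 4 comparisons of Xcr1 passed (exact permutation p from 0.162 to 0.431, log2 differences from 0.73 to 0.91). These differences rest on few reads: the one on anti-IL-38 was 0.02 without isotype replicate 5, that by genotype 0.31 without WT replicate 2 and that on blockade 0.34 without IL-38 KO replicate 2, each the lowest of its group, and with both means of inhibition the difference was 0.55 without WT replicate 2. The summed list of 6 cDC1 genes (Clec9a, Batf3, Cadm1, Wdfy4, Itgae and Naaa) was at 109 to 179 CPM in isotype and 112 to 200 CPM with anti-IL-38. Which cells this RNA came from was not tested, so the sum is no measure of cDC1 number. The list of 6 NK cell genes was at 0.596 to 8.54 and 3.802 to 8.58 CPM, and that of 4 γδ T cell genes at 0.372 to 2.33 and 0.296 to 2.74 CPM.

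**Figure D3:**
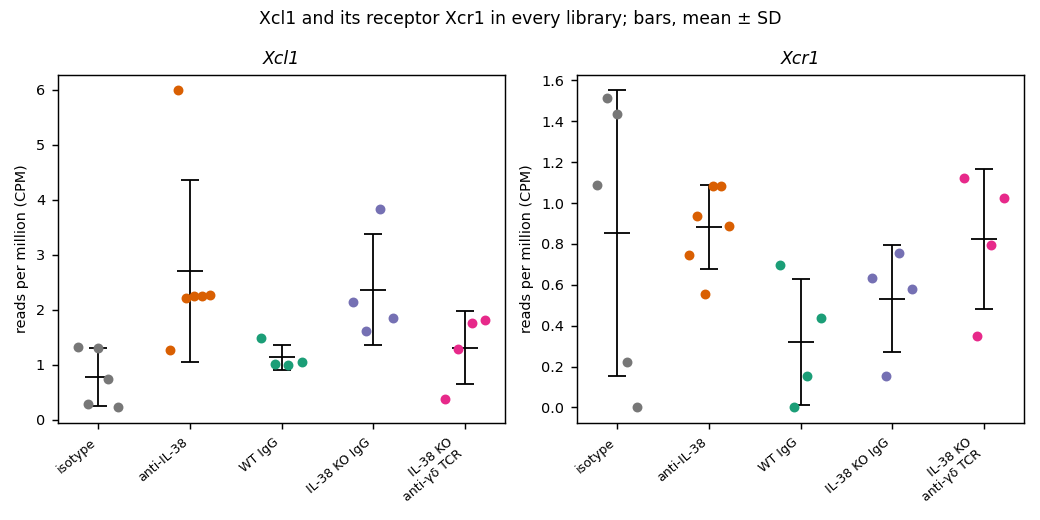
Xcl1 (left) and Xcr1 (right) in CPM in each tumor by group, with the mean and SD as bars. Xcl1 was 0.776 ± 0.527 CPM (SD, n = 5) in isotype, 2.71 ± 1.66 CPM (SD, n = 6) with anti-IL-38, 1.14 ± 0.2296 CPM (SD, n = 4) in WT and 2.36 ± 1.01 CPM (SD, n = 4) in IL-38 KO tumors, whereas Xcr1 overlapped between all groups.

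The inflammatory CC ligands, which attract monocytes, macrophages, T cells and eosinophils, held the largest fold change of all members. Ccl6 and Ccl9, 2 neighboring genes of myeloid cells whose products act through Ccr1, differed in the same libraries. Ccl6 was at 3979, 3039, 2237, 2509.7 and 3325 CPM in isotype tumors, 1743 at the lowest, 1974 at the median and 2747 at the highest CPM with anti-IL-38, and 2086, 2671, 1964 and 1527 CPM in WT tumors. In IL-38 KO tumors it was at 1423, 1435, 2013 and 103 CPM, and with blockade at 18.1, 12.8, 12.8 and 77.2 CPM. Replicate 4 of the IL-38 KO group thus lay with the blockade libraries and not with its own group, although all 4 blockade libraries were still below it. The log2 fold change on blockade was −5.02 ± 0.88 (SE), adjusted p = 0.0657, and without IL-38 KO replicate 4 it was −5.99 (adjusted p = 1.12e-05). Ccl9 was at 227, 242, 295 and 30.6 CPM in IL-38 KO and 14.6, 13.2, 10.7 and 32.3 CPM with blockade (−3.03 ± 0.63 (SE), adjusted p = 0.0657; without replicate 4, −3.77 (adjusted p = 6.17e-06)). In the other 18 libraries Ccl9 was at 227 to 606 CPM.

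Within those 18 libraries the reads of Ccl6 and Ccl9 stood in a nearly fixed ratio, 5.94 to 7.06, although Ccl6 itself ranged from 1423 to 3979 CPM across 4 groups and both experiments. In the 5 libraries that stood apart the ratio was 0.973 to 3.36. The summed list of 6 neutrophil genes (S100a8, S100a9, Ly6g, Csf3r, Retnlg and Mmp8) was also lower in the 5 libraries: it was at 229 to 636 CPM in the 18 libraries and at 7.33 to 41.3 CPM in the 5. Relative to Ccl6 it was at 14.6% to 19.1% in the 18 and at 40.1% to 266% in the 5, so that its ratio to Ccl6 differed as well. The list of 8 macrophage genes was at 1573 to 3178 CPM in the 18 and 678 to 1086 CPM in the 5, and Ly6g was at 0 in all libraries with blockade and all with anti-IL-38, and in most others. The part of these cells, of the depth and of the library composition in the shift of Ccl6 and Ccl9 was not tested.

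**Figure D4:**
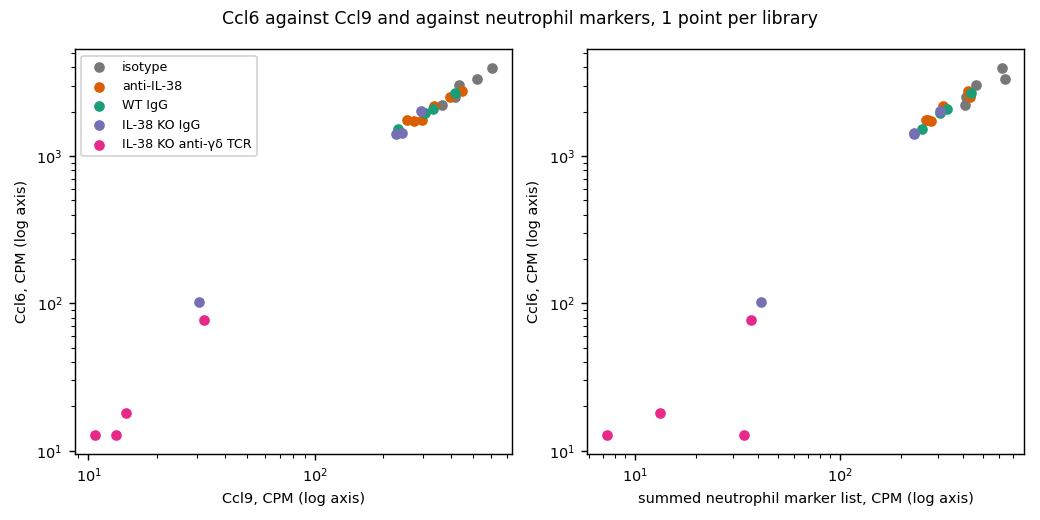
Ccl6 against Ccl9 (left) and against the summed neutrophil marker list (right) in CPM on log axes, 1 point per library, colored by group. The 18 libraries form 1 line with Ccl6 at 1423 to 3979 CPM, and IL-38 KO replicate 4 at 103 CPM lies with the 4 blockade libraries at 12.8 to 77.2 CPM.

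For Ccl6, Ccl9 and Ccl3, 3 genes of the chromosome 11 cluster that were lowest in the same 5 libraries, and for Ccl20, which ran the other way, the 150 bases before the start of transcription are given from RefSeq (GRCm38.p6), 5′ to 3′ on the strand of the gene, with matches to the searched motifs in capitals.
Ccl6, chr11:83593088-83593237, minus strand: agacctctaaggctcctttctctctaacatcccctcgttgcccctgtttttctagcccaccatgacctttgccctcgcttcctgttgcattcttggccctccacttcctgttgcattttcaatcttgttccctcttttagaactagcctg
Ccl9, chr11:83578637-83578786, minus strand: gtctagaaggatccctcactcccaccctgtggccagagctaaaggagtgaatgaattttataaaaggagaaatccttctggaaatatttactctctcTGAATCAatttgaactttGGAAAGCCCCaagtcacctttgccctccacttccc
Ccl3, chr11:83649379-83649528, minus strand: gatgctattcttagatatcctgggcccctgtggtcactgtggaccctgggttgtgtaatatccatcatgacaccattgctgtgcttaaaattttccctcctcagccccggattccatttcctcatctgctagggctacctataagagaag
Ccl20, chr1:83116616-83116765, plus strand: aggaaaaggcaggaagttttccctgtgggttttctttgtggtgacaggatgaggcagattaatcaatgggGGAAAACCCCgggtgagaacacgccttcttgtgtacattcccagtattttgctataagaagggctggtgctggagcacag
The motifs searched on both strands were TTCNNNGAA (a STAT site), TGANTCA (an AP-1 site) and the NF-kB consensus, in the 250 bases before the start of the 41 members with an entry; Ccl11, Ccl2, Ccl24, Ccl4, Ccl5, Ccl7, Ccr10, Ccr7, Cxcl16, Cxcl17, Cxcl5 and Cxcr5 had none. Ccl9 held an AP-1 match 53 bases and an NF-kB match 35 bases before the start, Ccl20 held an NF-kB match 80 bases before it, and the windows of Ccl6 and Ccl3 held none of these letters. The NF-kB consensus was found before 9 of the 41 members (Ackr2, Ccl20, Ccl9, Ccr3, Ccr6, Cxcl1, Cxcl10, Cxcl2 and Cxcl3), or 22.0%, against 4.46% of 27025 genes with such a window. For TTCNNNGAA and TGANTCA the shares were 9.76% of members each, against 8.13% and 7.82% of all. A match is a description of the letters and not of binding.

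Ccl3, which attracts macrophages and lymphocytes partly through Ccr1, was at 11.96, 15.4, 18.2 and 1.04 CPM in IL-38 KO and 1.62, 2.92, 0.319 and 1.59 CPM with blockade, where all other groups held 12.3 to 28.8 CPM. Replicate 4 of the IL-38 KO group fell within the range of the blockade libraries (−2.35 ± 0.86 (SE), adjusted p = 0.144; without it, −3.26 (adjusted p = 0.00183)). Its close relative Ccl4 did not share this, with 4.41 to 6.36 CPM in IL-38 KO and 4.55 to 8.41 CPM on blockade. The monocyte attractant Ccl2 was at 9.43, 10.5, 14.3 and 2.67 CPM in IL-38 KO and 4.74, 6.54, 1.43 and 5.23 CPM with blockade, and these overlapped. Ccl7, which shares the receptor Ccr2, was at 3.64 to 7.998 and 2.497 to 6.66 CPM.

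In the neutralization experiment, Ccl6 and Ccl9 were also lower with anti-IL-38 than in isotype at an unadjusted p under 0.05, with log2 fold changes of −0.45 (adjusted p = 0.432) and −0.44 (adjusted p = 0.425); 4 of 6 treated tumors lay below all isotype tumors for each. The neutrophil list was at 410 to 636 CPM in isotype and 263 to 432 CPM with anti-IL-38, also with 4 of 6 treated tumors below all isotype tumors, and its part was not tested. Ccl11, an eosinophil attractant known as eotaxin, had log2 fold changes of 0.96 on anti-IL-38 and 1.48 in IL-38 KO (adjusted p = 0.5104 and 0.439), with 0.149 to 0.822 CPM in isotype, 0.317 to 1.79 CPM on anti-IL-38, 0.234 to 3.25 CPM in WT and 0.872 to 4.79 CPM in IL-38 KO. Ccl12 had a log2 fold change of 0.81 (adjusted p = 0.527) with IL-38 inhibited, and isotype replicate 5 was lowest at 0.149 CPM. Ccl8 and Ccl24 overlapped in every comparison.

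Ccl5, which attracts T cells and NK cells, separated the genotypes. WT tumors held 16.7, 15.2, 16.4 and 24.6 CPM and IL-38 KO tumors 7.45, 10.1, 10.1 and 11.9 CPM. Every IL-38 KO tumor was below every WT tumor (−0.84 ± 0.21 (SE), adjusted p = 0.2101 in limma; DESeq2 −0.85 (adjusted p = 0.0281); limma without IL-38 KO replicate 4, −0.95 (adjusted p = 0.108)). The list of 4 γδ T cell genes did not overlap between the genotypes either, at 2.78 to 4.68 CPM in WT and 1.39 to 2.64 CPM in IL-38 KO, while the list of 7 T cell genes was at 9.91 to 23.7 and 7.61 to 15.7 CPM and the NK cell list at 3.35 to 7.06 and 3.09 to 4.09 CPM; their part in the level of Ccl5 was not tested. In contrast, the study's flow cytometry counted more γδ T cells in IL-38 KO than in WT tumors, taken at a later age. The γδ T cell list was at few CPM and is no count of cells. In the neutralization experiment Ccl5 did not separate, with 14.6, 16.1, 10.1, 14.3 and 13.2 CPM in isotype and 10.2 at the lowest, 12.5 at the median and 15.6 at the highest CPM with anti-IL-38 (−0.05 on the log2 scale). The difference between the antibody effect and the knockout effect was 0.79 ± 0.27 (SE), adjusted p = 0.564, so that the 2 effects were not shown to differ over all genes. Groups that do not overlap were seen for 4 of 42 members in the knockout comparison (Ccl5, Ccr2 and Ccr7 lower and Xcl1 higher), where 7.06% of all genes did so, for 2 of 42 in the blockade (Ccl6 lower and Cxcl17 higher; 9.54% of all genes), and for 0 of 41 in the antibody comparison (1.04%).

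Among the CC receptors, Ccr2, the receptor of Ccl2 on inflammatory monocytes, was at 68.9, 74.3, 60.97 and 67.6 CPM in WT and 37.7, 43.2, 55.99 and 41.1 CPM in IL-38 KO. The genotypes did not overlap (−0.60 ± 0.15 (SE), adjusted p = 0.225; DESeq2 −0.58 (adjusted p = 0.0447); limma without replicate 4, −0.57 (adjusted p = 0.163)). The macrophage list was at 1961 to 2551 CPM in WT and 1573, 1704, 2123 and 874 CPM in IL-38 KO, and the neutrophil list at 251 to 436 CPM and 231, 229, 309 and 41.3 CPM; their part was not tested. With blockade it was at 21.97, 22.1, 22.96 and 42.3 CPM, and 3 of the 4 libraries lay below all IL-38 KO tumors with IgG (−0.57 ± 0.22 (SE), adjusted p = 0.165). In the neutralization experiment it was at 51.4 to 95.1 CPM in isotype and 42.7 to 93.01 CPM on anti-IL-38.

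Ccr1, a receptor of Ccl3, Ccl6 and Ccl9 on myeloid cells, was at 15.1, 9.87, 18.6 and 3.13 CPM in IL-38 KO and 1.25, 3.04, 3.83 and 5.23 CPM with blockade, with replicate 4 among the blockade values (−1.50 ± 0.57 (SE), adjusted p = 0.154; without it, −2.01 (adjusted p = 0.0102)). Ccr7, which guides mature dendritic cells and naive T cells to lymph nodes, was at 2.35, 3.67, 2.46 and 6.15 CPM in WT and 2.22, 1.697, 1.51 and 1.74 CPM in IL-38 KO (−0.87 ± 0.36 (SE), adjusted p = 0.367), and its ligands Ccl19 and Ccl21a had 1 read and 0 reads in all. As near-identical copies of both exist, reads of these ligands may also have been dropped or split in counting. Ccr6 and Ccr9 passed the filter in the knockout comparison, with at most 1.19 CPM in any library.

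Taking the 40 members with a mean of at least 0.5 CPM, 7 (Ccl3, Ccl6, Ccl9, Ccl17, Ccl22, Ccr1 and Cxcl16) were lower in the 5 libraries that stood apart than in every other library, beside 5.8% of the 16163 genes with such a mean, and 0 were higher, beside 5.27%. Ccl20, whose mean was below that level, was the 1 member of the 53 that was higher in all 5. These 5 samples were picked out by depth and library composition and are not a group of the study.

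Ccl22 and Ccl17, ligands that dendritic cells and macrophages make to attract regulatory and Th2-type T cells, belong to the homing and barrier CC ligands. Ccl22 was at 3.803, 5.48, 7.62 and 0.232 CPM in IL-38 KO and 0, 0.117, 0 and 0.455 CPM with blockade; the other groups held 4.56 to 12.7 CPM. Its log2 fold change was −3.76 ± 1.00 (SE), adjusted p = 0.0676 (−4.75 (adjusted p = 0.00052) without replicate 4). Ccl17 was at 7.53, 7.48, 5.67 and 2.32 CPM and 1.12, 0.234, 2.07 and 1.93 CPM, again with replicate 4 nearest to the blockade (−2.03 ± 0.63 (SE), adjusted p = 0.0957; without it, −2.39 (adjusted p = 0.0241)). The list of 3 mature dendritic cell genes overlapped, at 51.1 to 104 CPM in IL-38 KO and 32.04 to 59.4 CPM with blockade. The cells its RNA came from, and its part in the level of these ligands, were not tested.

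Ccl20, the only known chemokine ligand of Ccr6, which marks IL-17-producing γδ T cells among others, had 0 reads in 17 of the 18 libraries that did not stand apart and 0.0683 CPM in the other one. It was at 1.62 CPM in IL-38 KO replicate 4 and at 0.999, 1.28, 1.75 and 0.569 CPM with blockade. The 3 other IL-38 KO tumors with IgG had 0 reads. The log2 fold change was 2.58 ± 0.96 (SE), adjusted p = 0.148, and 3.59 (adjusted p = 0.00165) without replicate 4. Its receptor Ccr6 was at 0.158 to 1.13 CPM in IL-38 KO and 0 to 0.478 CPM with blockade. The list of 4 γδ T cell genes was at 1.39 to 2.64 and 1.498 to 5.26 CPM in these groups. This list was thus not lower with blockade, where the study counted fewer γδ T cells by flow cytometry.

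Ccl28, a mucosal ligand of Ccr10 made by epithelium, was at 0.311, 0.433, 0.273, 0.149 and 0 CPM in isotype tumors and 0.333 at the lowest, 0.67 at the median and 2.98 at the highest CPM with anti-IL-38. All but 1 of the treated tumors lay above all isotype tumors (1.85 ± 0.64 (SE), adjusted p = 0.4196). In IL-38 KO against WT its groups overlapped, at 0.309 to 0.756 and 0.176 to 0.998 CPM. Ccl27a, a skin-homing ligand, was at 1.49 to 2.796 CPM in isotype, 2.33 to 5.96 CPM on anti-IL-38, 2.87 to 5.88 CPM in WT and 5.07 to 9.396 CPM in IL-38 KO, with log2 fold changes of 0.61 (adjusted p = 0.478) and 0.59 (adjusted p = 0.465); it has near-identical copies, so its counts are uncertain. Ccl25, a thymic and gut ligand of Ccr9, overlapped in every comparison at 3.08 to 7.52 CPM on anti-IL-38 and 7.998 to 14.6 CPM in IL-38 KO.

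Among the neutrophil-attracting CXC ligands, Cxcl15, known as lungkine and made by secretory epithelium, varied most between tumors. Isotype tumors held 0.466, 2.96, 0.137, 0 and 2.61 CPM. With anti-IL-38 it was at 1.58 at the lowest, 9.75 at the median and 48.9 at the highest CPM, and 4 of 6 tumors lay above all isotype tumors (4.06 ± 1.06 (SE), adjusted p = 0.376; DESeq2 3.94 (adjusted p = 0.0792)). In the genotype comparison the direction was the opposite, with 3.74, 8.81, 10.98 and 8.96 CPM in WT and 5.94, 2.39, 4.03 and 3.596 CPM in IL-38 KO (−0.95 ± 0.38 (SE), adjusted p = 0.352). The difference between the 2 effects was 5.02 ± 1.37 (SE), the smallest unadjusted p among the members (0.00156), with an adjusted p of 0.525. With blockade it was at 3.37, 21.5, 14.98 and 10.01 CPM (1.58 ± 0.52 (SE), adjusted p = 0.108; DESeq2 1.82 (adjusted p = 0.0109)), and 3 of 4 libraries lay above all IL-38 KO tumors with IgG. The luminal epithelial list was at 579 to 1678 CPM in isotype and 1146 to 2568 CPM with anti-IL-38, and its part in the difference was not tested.

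The classical Cxcr2 ligands gave no such pattern. Cxcl1 was at 1.398 to 2.84 CPM in isotype and 0.197 to 2.83 CPM on anti-IL-38, Cxcl2 at 1.299 to 3.81 and 1.99 to 5.58 CPM, and Cxcl5 at 0.932 to 6.08 and 2.0 to 6.42 CPM. In IL-38 KO tumors the same 3 ligands were at 1.19 to 10.4, 0.696 to 2.71 and 0.317 to 5.68 CPM. Their receptors Cxcr1 and Cxcr2 were at most 0.945 CPM in any library, also in the 18 libraries where the neutrophil list was at 229 to 636 CPM.

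The Cxcr3 ligands Cxcl9 and Cxcl10, which interferon-γ induces, overlapped on anti-IL-38 and by genotype. Cxcl9 was at 18.4, 13.6, 16.7 and 17.9 CPM in WT, 9.03, 12.3, 11.5 and 17.9 CPM in IL-38 KO and 21.6, 22.8, 13.4 and 19.4 CPM with blockade. On blockade 3 of 4 libraries lay above all those with IgG, and IL-38 KO replicate 4 was the highest of its group (0.79 ± 0.25 (SE), adjusted p = 0.0936; without replicate 4, 0.99 (adjusted p = 0.00975)). Isotype replicate 5 was lowest of all at 3.35 CPM. Cxcl10 was at 4.75 to 7.17 CPM in IL-38 KO and 4.62 to 11.4 CPM with blockade, and Cxcr3 itself at 0.158 to 2.09 and 0.375 to 1.93 CPM. Cxcl11 is not annotated as protein coding in the annotation used and was outside the selection.

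Among the other CXC ligands, Cxcl17, a mucosal attractant of myeloid cells, was at 4.18, 1.01, 2.76 and 4.65 CPM in WT, 1.11, 0.386, 1.197 and 0.812 CPM in IL-38 KO and 1.87, 8.53, 4.46 and 3.75 CPM with blockade. The knockout log2 fold change was −1.63 ± 0.53 (SE), adjusted p = 0.2899, and the lowest WT tumor lay within the range of the IL-38 KO tumors. All 4 blockade libraries lay above all IL-38 KO libraries with IgG (2.35 ± 0.51 (SE), adjusted p = 0.0657; DESeq2 2.56 (adjusted p = 0.000964); without replicate 4, 2.36 (adjusted p = 0.0127)). Unlike the myeloid ligands above, replicate 4 lay with its own group here. Both comparisons share the IL-38 KO tumors with IgG, so their opposite directions are not independent.

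Cxcl12, the stromal ligand of Cxcr4, and Cxcl14, an epithelial and stromal ligand, were, within the neutralization experiment, lowest in isotype replicate 5 (3.87 and 15.9 CPM) and highest in anti-IL-38 replicates 2 and 5 (72.03 and 56.2 CPM for Cxcl12, 165 and 166 CPM for Cxcl14). The log2 fold change of Cxcl14 on anti-IL-38 was 0.98 ± 0.43 (SE), adjusted p = 0.458, and the fibroblast list was at 952 to 3218 CPM in isotype and 1151 to 3516 CPM with anti-IL-38; its part was not tested. Cxcl16, a membrane-bound ligand of macrophages and dendritic cells, was at 198, 197, 155, 182 and 189.7 CPM in isotype and 119 at the lowest, 156 at the median and 175 at the highest CPM with anti-IL-38 (−0.22 ± 0.11 (SE), adjusted p = 0.481). In IL-38 KO it was at 104, 134, 154 and 69.6 CPM and with blockade at 63.05, 89.6, 52.4 and 82.7 CPM; it was called only without IL-38 KO replicate 4, at −0.68 (adjusted p = 0.0362). Cxcl13, the B cell attractant, was at 1.87 to 5.61 CPM in WT and 0.926 to 5.35 CPM in IL-38 KO.

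Of the remaining receptors, Cxcr4 was at 67.2, 61.9, 103 and 68.9 CPM in WT, 104, 118, 98.6 and 76.8 CPM in IL-38 KO and 56.9, 39.01, 81.9 and 43.7 CPM with blockade (0.44 ± 0.18 (SE), adjusted p = 0.373 for knockout; −0.71 ± 0.26 (SE), adjusted p = 0.141 for blockade). In both comparisons the groups overlapped. Cxcr5, the receptor of Cxcl13 on B cells and follicular helper T cells, was at 0, 0, 0.504 and 0.928 CPM in IL-38 KO and 0.375, 1.87, 1.28 and 1.25 CPM with blockade and at 0 to 0.261 CPM in the other groups (2.11 ± 0.88 (SE), adjusted p = 0.194; without replicate 4, 2.72 (adjusted p = 0.0382)). The B cell list ran the other way, at 2.10 to 4.55 CPM with blockade and 4.99 to 15.4 CPM in IL-38 KO tumors with IgG. Cd79a, a gene of that list, had 0 reads in all libraries of both groups. Cx3cr1 and its ligand Cx3cl1 overlapped in every comparison, with Cx3cr1 at 108 to 123 CPM in IL-38 KO and 101 to 132 CPM with blockade. Cxcr6, found on tissue-resident T cells and NKT cells, was at 2.81 to 5.796 CPM in WT and 1.08 to 5.92 CPM in IL-38 KO.

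**Figure D5:**
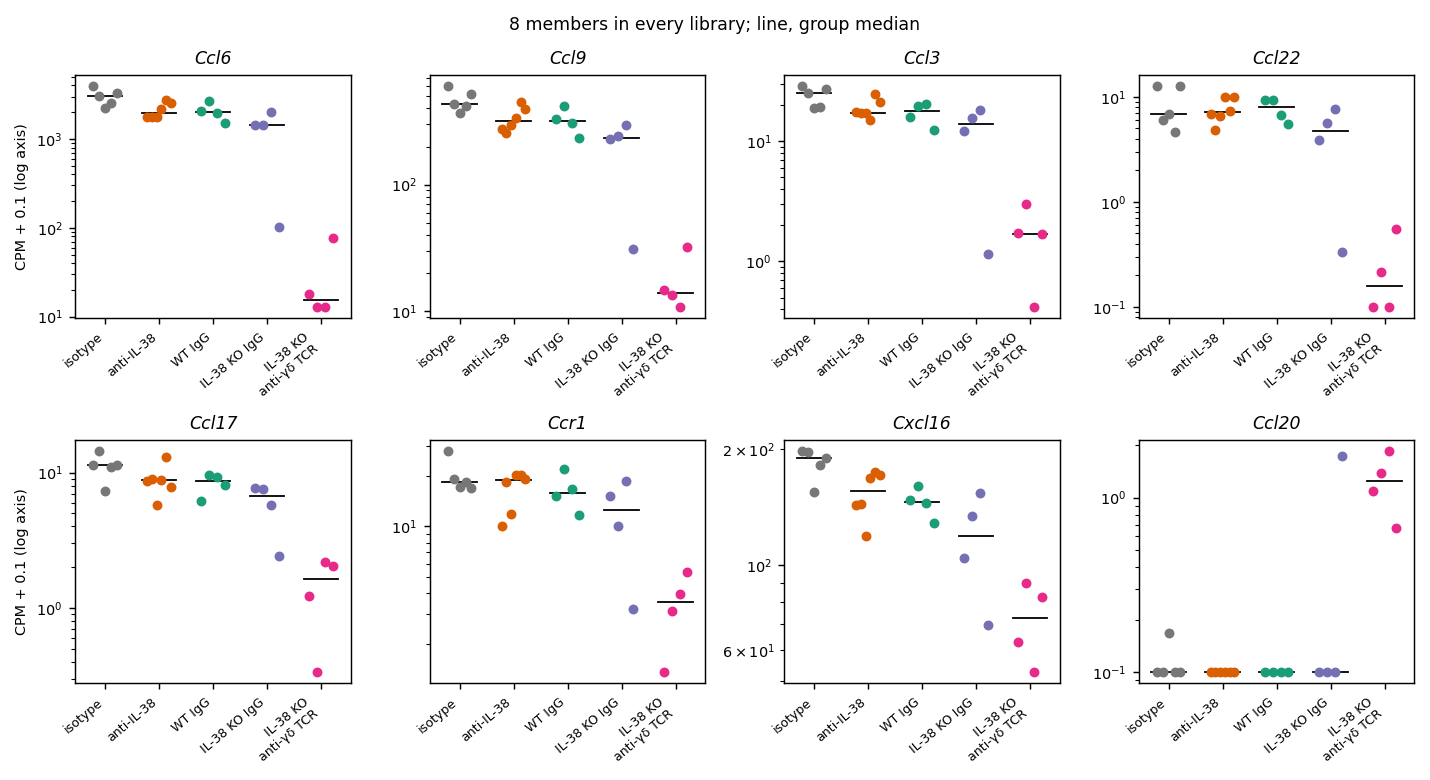
CPM + 0.1 on a log axis for 8 members in each tumor by group, with the group median as a line; the added 0.1 lets a count of 0 be drawn. For the 7 members other than Ccl20, the blockade libraries lie low and IL-38 KO replicate 4 is the lowest of its group, whereas Ccl20 was at 0.569 to 1.75 CPM with blockade and at 1.62 CPM in that replicate.

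Among the atypical receptors, Ackr3, which takes up Cxcl12, was at 12.7, 9.02, 13.2, 9.64 and 3.65 CPM in isotype and 11.6 at the lowest, 15.1 at the median and 15.6 at the highest CPM with anti-IL-38, and 4 of 6 treated tumors lay above all isotype tumors (0.74 ± 0.28 (SE), adjusted p = 0.428). In WT it was at 14.4, 12.8, 19.97 and 15.4 CPM and in IL-38 KO at 17.5, 29.7, 18.3 and 20.9 CPM (0.48 ± 0.21 (SE), adjusted p = 0.3896). Over both means of inhibition the log2 fold change was 0.60 ± 0.22 (SE), adjusted p = 0.371. Ackr4, a scavenger of Ccl19, Ccl21 and Ccl25, was at 0 to 9.24 CPM on anti-IL-38, with the same 2 tumors highest in that experiment as for Cxcl12 and Cxcl14. Ackr1 and Ackr2 were at most 3.51 and 1.08 CPM in any library.

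Whether a ligand and its receptor varied together was asked for 6 pairs, 5 of them given here, across the 19 tumors of the neutralization experiment and the genotype comparison, on log2(normalized count + 1), with permutation p-values of Pearson's r adjusted over the 6. Ccl2 and Ccr2 had r = 0.61 (p = 0.00346, adjusted 0.0104) and Spearman's rho = 0.65 (permutation p = 0.00356). Within the neutralization experiment r was 0.82 (n = 11, permutation p = 0.0026) and within the genotype comparison 0.47 (n = 8, exact permutation p = 0.254). Without the 2 tumors farthest from the ligand's median r was 0.46 (permutation p = 0.0601), so passing 0.05 rests on those tumors, isotype replicate 1 and IL-38 KO replicate 4, while the sign was kept and r was 0.55 to 0.67 (adjusted p at most 0.0493) when any 1 tumor was left out.

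Cxcl12 and Cxcr4 ran in opposite directions, with r = −0.62 (permutation p = 0.00339, adjusted 0.0104) and rho = −0.57 (permutation p = 0.0123); r was −0.69 within the neutralization experiment (n = 11, permutation p = 0.0153) and −0.26 within the genotype comparison (n = 8, exact permutation p = 0.511). It fell to −0.40 (permutation p = 0.117) without anti-IL-38 replicate 3 and isotype replicate 5, so passing 0.05 rests on those 2, and leaving out isotype replicate 5 alone gave −0.44 (adjusted p = 0.103). Cxcl16 and Cxcr6 had r = −0.55 (permutation p = 0.0247, adjusted 0.0493) and rho = −0.53 (permutation p = 0.022), with −0.35 (n = 11, permutation p = 0.313) and −0.42 (n = 8, exact permutation p = 0.286) within the experiments. Without IL-38 KO replicates 1 and 4 it was −0.47 (permutation p = 0.0543), and in 12 of 19 leave-one-out settings its adjusted p was above 0.05. For Xcl1 and Xcr1 r was 0.45 (permutation p = 0.0513, adjusted 0.0769) and rho 0.38 (p = 0.106, permutation). Without anti-IL-38 replicate 2 and isotype replicate 5, the 2 tumors farthest from the ligand's median, r was 0.185 (permutation p = 0.468). Without isotype replicate 2 alone it was 0.69 (adjusted p = 0.00692), so the value depended on single tumors. Cxcl9 and Cxcr3 (r = 0.09, permutation p = 0.684) gave no relation past 0.05. The pairs are measured in the same libraries, so that shared depth and tumor composition enter both values.

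The pathway was further described by 28 genes outside the selection: platelet chemokines, chemerin and scavenging receptors, G proteins, arrestins, receptor kinases and the migration machinery downstream. None of the 26 or 27 tested passed an adjusted p of 0.05 in limma in any comparison. DESeq2 called 5 of 26 in the blockade, 1 higher and 4 lower, beside 6.29% of all genes. In the other comparisons it called 0. At an unadjusted p under 0.05, blockade had 3 higher and 5 lower of 26, where 21.7% of all genes had such a p. Those lower included Pf4, the platelet factor (−3.46 ± 0.73, SE), Rac2, a GTPase of leukocyte migration (−2.45 ± 0.52), Pik3r5, a subunit of the PI3Kγ complex (−2.22 ± 0.38) and Dock2, an activator of Rac (−1.08 ± 0.30), and Grk2, a kinase that desensitizes chemokine receptors, was higher at 1.08 ± 0.24. Without IL-38 KO replicate 4, 10 of 27 were called by limma, 8 lower and 2 higher, beside 14.3% of all genes. In the knockout comparison 11 of 27 had an unadjusted p under 0.05, 9 of them lower, with a median over the 27 of −0.39, beside 12.1% of all genes. Without IL-38 KO replicate 4 it was 6 of 27, 5 of them lower, with a median of −0.26. On anti-IL-38 5 of 27 had such a p, all lower, beside 10.5% of all genes.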

How the data were processed

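Tumors were measured by QuantSeq 3′ mRNA sequencing with single reads of 75 cycles, in 23 libraries. The labels do not pair animals, and p-values measure the spread between these tumors. The deposited tables hold a signal per gene and library, called normalized counts here: the authors divided the read counts per gene by 1 size factor per library, in a table of 19 libraries and, separately, in a table of 8, which share the 4 IL-38 KO libraries with IgG. The submitters' processing notes name STAR, HTSeq, DESeq2 and GRCm39, and the study names the BlueBee QuantSeq pipeline. Whole reads were recovered for 100% of values within 0.0001%; in WT replicate 1 the value of 1 read was 0.996, too near 1 to tell from rounding. CPM from these reads served for levels across groups, with no test between tables. Symbols and types came from GENCODE M21, where 47224 of 47643 identifiers matched.

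Genes averaging 5 or more normalized counts were tested with limma 3.58.1 (R 4.3.3, eBayes with trend, two-sided, on log2(normalized count + 1), which understates changes of low genes), with Benjamini-Hochberg adjustment over all genes tested and a threshold of 0.05. Adjusted p-values are limma's unless named. The antibody effect against the knockout effect was an interaction term over 19 libraries. Xcl1 and Xcr1 were tested by exact permutation over 8 tests, and pairs by 100000 permutations (scipy 1.17.1). edgeR 4.0.16, DESeq2 1.42.0, pseudocounts of 0.5 and 5, other filters, TMM, a replicate block, a term for the experiment and omission of each library were alternatives. On simulated counts all 200 abundant genes changed by 3 on the log2 scale in either direction were recovered by each tool in each comparison, with 5 to 12 false calls by limma or edgeR and 21 to 30 by DESeq2. Replicates of 1 group were no duplicates, with a chi-square per degree of freedom of 17.1 to 138 over 43 pairs.

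The receptors left out of the selection, and 1 ligand and receptor pair, are not reported here. The members, gene lists and tests were chosen with earlier results of these data known. Genes named with fold changes are Xcl1, Xcr1 and up to 10 tested members per comparison with the smallest p, others of a fixed list of chemokine axes are given by level, and Ccr1, Ccr2, Cxcr5 and Cxcl17 where also named in a further comparison were chosen after their values were seen.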

Additional observations from a re-analysis of the deposited data

Results flagged for a closer look

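Among 22 members in 5 groups (110 tests of a single tumor far from the others of its group, by Dixon's criterion), 13 values were marked. Chance gives about 5.5 only for normally distributed values. The criterion was used on untransformed CPM, some of them near 0, so the 13 cannot be set against that number. For γδ TCR blockade, replicate 4 was high in Ccl6 (77.2 CPM, next 18.1), Ccl11 (3.64, next 0.797) and Ccr2 (42.3, next 22.96). Anti-IL-38 replicate 2 was high in Xcl1 (5.99 CPM, next 2.27) and Cxcl17 (14.5, next 6.05), and anti-IL-38 replicate 4 in Ccl27a (5.96, next 3.65). WT replicate 1 was high in Xcl1 (1.48 CPM, next 1.05), WT replicate 4 in Ccl5 (24.6, next 16.7) and WT replicate 3 in Cxcr4 (103, next 68.9). IL-38 KO replicate 4 was high in Ccl27a (9.396 CPM, next 5.79), and isotype replicate 5 was low in Cxcl9 (3.35 CPM, next 11.4). In Ccl20, IL-38 KO replicate 4 (1.62 CPM) and isotype replicate 3 (0.0683 CPM) were high, with all others of their groups at 0. IL-38 KO replicate 4 was not marked for Ccl6, as its gap of the group's range did not exceed the criterion for 4 tumors. For no member did the test of the antibody effect against the knockout effect pass an adjusted p of 0.05.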

How the results depend on the processing

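The count of members called by limma was 0 in all comparisons with pseudocounts of 0.5 or 5, no filter or one at a mean of 20, TMM scaling, edgeR and the replicate block. With DESeq2 it was 1 with IL-38 inhibited, 2 with the knockout and 8 with blockade; leaving out libraries gave 0 to 11 with blockade and 0 elsewhere. The cause of these differences was not tested. The log2 difference of Xcl1 on anti-IL-38 was 1.56 to 2.12 over leave-one-out settings. The correlation of Cxcl16 and Cxcr6 was −0.50 (adjusted p = 0.0769) on CPM and −0.62 to −0.45 over leave-one-out settings, that of Cxcl12 and Cxcr4 −0.69 to −0.44, that of Xcl1 and Xcr1 0.24 to 0.69, and that of Ccl2 and Ccr2 0.55 to 0.67. No leading fold change turned its direction under any alternative run.

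Replicate numbers did not pair the tumors: same-numbered tumors correlated from −0.169 to 0.0746 in their deviations. With the number as a block, 0 members were called, and 12 instead of 8 members had an unadjusted p under 0.05 in the knockout comparison. With 4 to 6 tumors per group and 41 or 42 members tested, members near 1 CPM such as Xcl1, Xcr1, Ccl20 and Cxcr5 rest on few reads.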
